A study of Mus musculus with 6 samples.

Results

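The microRNAs described here are the arms of the 5 hairpins that follow miR-322 and miR-503 in their cluster on the mouse X chromosome, namely miR-351, miR-542, the 2 copies of miR-450a, and miR-450b. They were chosen by name, and 9 of the 1028 mature microRNAs in the deposited count table met the rule. MicroRNAs were counted by small-RNA sequencing in a mouse epicardial cell line, the cells of the outer layer of the heart kept in culture. The KO group (3 libraries) received a lentivirus carrying an Hdac3 sgRNA for CRISPR/Cas9 knockout of Hdac3, a histone deacetylase of repressor complexes, and the EV group (3 libraries) received an empty-vector lentivirus. The labels call the cells epicardial throughout but abbreviate them both as MEC and as MCEC, and they do not say whether KO is 1 clone or whether replicates were separate cultures. P-values therefore measure the spread between these libraries, which may be technical. The Hdac3 mRNA and the mRNA markers of the epicardium are not seen by this assay, so neither the knockout nor the cell identity was checked.

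A microRNA hairpin is cut out of a longer transcript by Drosha and again by Dicer, which leaves a duplex of a 5p and a 3p arm. Usually 1 arm is loaded into an Argonaute protein and kept, and the other is degraded. The loaded arm finds its target mRNAs mainly through its seed, bases 2 to 8. The cluster is best known for miR-322 and miR-503, which repress cell-cycle genes such as cyclin D1. Of the downstream arms, miR-351-5p carries the seed of the miR-125 family, and miR-542-3p has been reported in human cells to repress survivin, an inhibitor of apoptosis.

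The mature sequences show which downstream arms can be told apart in a read and which share a seed. All 9 matched RefSeq (GRCm38.p6), and each is given 5′ to 3′ on the minus strand of chromosome X with its seed in capitals. The order is that of transcription, and the prefix mmu is left off in the rest of the text.
mmu-miR-351-5p: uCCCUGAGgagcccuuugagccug
mmu-miR-351-3p: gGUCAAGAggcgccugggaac
mmu-miR-542-5p: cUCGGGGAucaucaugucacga
mmu-miR-542-3p: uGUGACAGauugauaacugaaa
mmu-miR-450a-5p: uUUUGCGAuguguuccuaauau
mmu-miR-450a-2-3p: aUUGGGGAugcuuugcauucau
mmu-miR-450a-1-3p: aUUGGGAAcauuuugcauaaau
mmu-miR-450b-5p: uUUUGCAGuauguuccugaaua
mmu-miR-450b-3p: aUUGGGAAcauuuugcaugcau

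The 3 miR-450 hairpins are close copies. miR-450a-5p is identical in Mir450-2 and Mir450-1, so its reads cannot be assigned to either. miR-450a-1-3p and miR-450b-3p are identical at 20 of 22 bases and share a seed. They differ by A19G and A20C, with positions counted from the 5′ end and the miR-450a-1-3p base first. Reads trimmed before base 19 fit both, and counts of these arms are uncertain for that reason. miR-450a-5p and miR-450b-5p are identical at 15 of 22 bases and differ from base 7 on, inside the seed (G7A and A8G, miR-450a-5p base first). They start alike but do not share a seed.

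In the GENCODE M21 annotation (GRCm38) Mir351 lies at chrX:53053255-53053353, 630 bases after Mir503, and Mir542 at chrX:53049403-53049487. A gap of 3767 bases separates Mir351 from Mir542, and the noncoding gene Gm28730 lies within it (chrX:53051194-53053159). Mir450-2 follows at chrX:53048299-53048367, Mir450-1 at chrX:53048154-53048244 and Mir450b at chrX:53047997-53048078. The last starts 6271 bases downstream of the start of Mir322. None of the 7 hairpins of the cluster lies inside another annotated gene.

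The libraries held 12720548 to 13412774 counts in KO and 11824881 to 12806873 in EV. The highest single microRNA, miR-21a-5p, took 66.7% to 69.4% of them in KO and 63.0% to 70.1% in EV. Levels are given as CPM, counts per 1000000 after TMM scaling of library sizes, and 1 read was worth 0.0637 to 0.0892 CPM. The factor was 0.920 to 0.986 in KO and 0.919 to 1.23 in EV, where EV 1 had the highest. Libraries KO 2 and EV 3 stood apart from the others on the first principal component (53.2% of the variance). They also held the red-cell microRNA miR-451a at 62.7 CPM in KO 2 and 54.7 CPM in EV 3, against at most 2.45 CPM in the other 4. The other listed blood marker, miR-144-3p, did not go with it. It was at 0 CPM in KO 2, in EV 3 and in all others but EV 2 (0.0816 CPM). The neural miR-9-5p was highest in the same libraries, at 57.1 CPM in KO 2 and 51.4 CPM in EV 3. Summed endothelial markers (2 of 2 listed in the table) were at 34.7 to 35.4 CPM in KO and 36.6 to 42.1 CPM in EV. Most of this was miR-126a-3p. The groups overlapped for miR-126a-5p, at 2.87 to 3.57 CPM in KO and 2.55 to 3.10 CPM in EV. Summed epithelial markers (5 of 5) were at 25.3 to 27.3 CPM in KO and 41.4 to 50.03 CPM in EV, and 2 of the 4 of them that were tested fell in KO. Among them, miR-141-3p was at 0 in all 3 KO libraries and at 0.0637 to 0.178 CPM in EV, which is 1 or 2 reads. Summed muscle markers (3 of 4) were at 20.9 to 24.9 CPM in KO and 26.2 to 27.2 CPM in EV. Nearly all of that sum was miR-206-3p. miR-1a-3p went the other way, at 1.75 to 2.35 CPM in KO and 0.828 to 1.25 CPM in EV, and miR-133a-3p was at or near 0 throughout. The liver miR-122-5p was at 0.638 to 3.24 CPM in KO and 0.408 to 0.637 CPM in EV. Their part in the results was not tested.

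The 9 downstream arms together took 0.321%, 0.331% and 0.318% of all counts in KO 1, KO 2 and KO 3, against 0.368%, 0.330% and 0.307% in EV 1, EV 2 and EV 3. The 95% Clopper-Pearson interval of the EV 1 share ran from 0.365% to 0.372%. It covers counting error only, since PCR copies were counted as reads. The arms differed in level by more than 1000-fold, and miR-351, miR-542 and miR-450b each had 1 strongly predominant arm. For miR-450a the shared 5p arm was far above both 3p arms, but its reads cannot be divided between the 2 copies. The order over the 6 libraries was miR-542-3p (mean 1249 CPM), miR-450a-5p (942.6 CPM), miR-351-5p (727 CPM), miR-450b-5p (328 CPM), miR-450b-3p (23.5 CPM), miR-351-3p (10.9 CPM), miR-450a-1-3p (4.62 CPM), miR-542-5p (4.198 CPM) and miR-450a-2-3p (0.362 CPM). Neighbours in this order stood in the same order in all 6 libraries, except miR-450a-1-3p and miR-542-5p, which were so ordered in 3 of 6. Adapter ligation favours some sequences over others, so differences in level between arms are partly set by the assay.

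No downstream arm passed the test between KO and EV, while 3 of the 4 arms of the upstream hairpins rose (1 of 4 with library size alone as the scaling). Of the 8 downstream arms tested, edgeR called 0 (Benjamini-Hochberg over the whole table), against a background of 7.61% called among all 460 microRNAs tested (5% higher and 2.61% lower in KO). At an unadjusted p under 0.05 there were 2, miR-450b-5p and miR-351-3p, against 23% of all tested. All 8 log2 changes of KO over EV were above 0, against 48.3% of all tested. Their median was 0.12, against -0.01 for all 460. Under scaling by library size only, which moves the median of all tested to -0.16, only miR-351-3p, miR-450a-1-3p and miR-450b-5p (3 of the 8) stayed above 0. With library sizes without miR-21a-5p (median of all -0.11) it was 5 of 8. DESeq2 gave an adjusted p to 6 of the 8 and called 1 of these, miR-450b-5p, against 16.1% of the 298 microRNAs to which it gave one. limma-voom called 0 of the 8, against 8.26% of 460. None of the 9 arms is among the 78 microRNAs in the authors' deposited table, while the count table holds 1028. The authors' table holds all 4 upstream arms, and the largest adjusted p in it, from the authors' own test, is 0.0488. In bulk cells a smaller number of cells with a microRNA and less of it per cell cannot be told apart.

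**Figure D1:**
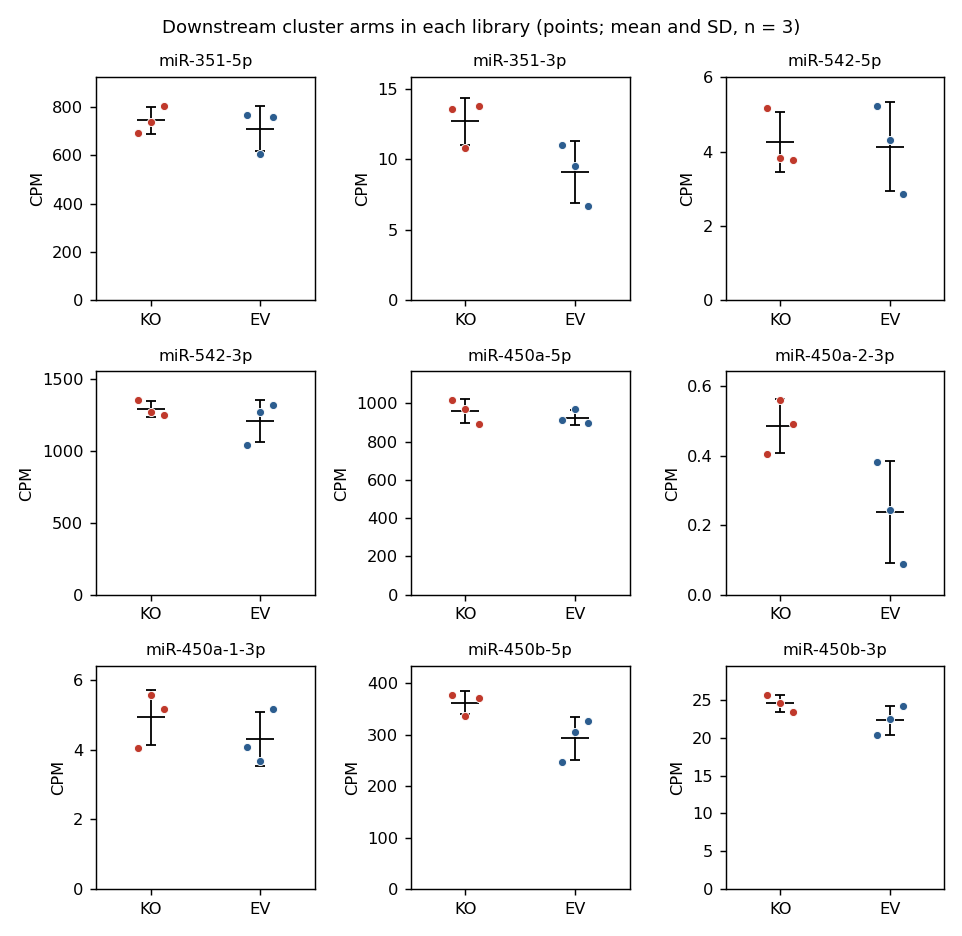
CPM (linear axis from 0) of the 9 downstream arms in the 3 KO and 3 EV libraries, with points for libraries and black marks for the mean and SD. In miR-450b-5p and miR-450a-2-3p every KO point lies above every EV point, and in the other 7 arms the groups overlap.

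In the miR-351 hairpin, the first after miR-503, the abundant 5p arm was at similar levels in both groups. miR-351-5p had 693, 736 and 802 CPM in KO 1, KO 2 and KO 3, against 767, 603 and 759 CPM in EV 1, EV 2 and EV 3. The groups overlapped, and EV 2 was the lowest of the 6 libraries. The log2 change was 0.07 (SE 0.10, 95% interval -0.16 to 0.29, edgeR adjusted p = 0.714), and the interval as a fold ran from 0.896 to 1.23. The minor arm miR-351-3p had 13.5, 10.8 and 13.8 CPM in KO, against 11.02, 9.55 and 6.69 CPM in EV. Only EV 1 reached into the KO range. The log2 change of miR-351-3p was the largest of the tested downstream arms at 0.48 (SE 0.20, 95% interval 0.03 to 0.93), and it was not called (edgeR adjusted p = 0.194). Counts behind these values were 135 to 168 in KO and 75 to 173 in EV.

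In the miR-542 hairpin the 3p arm was the most abundant of all downstream arms. miR-542-3p had 1351, 1273 and 1249 CPM in KO, against 1038, 1269 and 1317 CPM in EV. EV 1 stood below the other 5 libraries, which lay within a narrow range. The log2 change was 0.10 (SE 0.09, 95% interval -0.11 to 0.30, edgeR adjusted p = 0.565). The rare 5p arm, miR-542-5p, was counted 64, 48 and 46 times in KO and 82, 53 and 32 times in EV. Its groups overlapped, and its log2 change of 0.03 had a 95% interval from -0.49 to 0.54, and the upper end of this interval is a 1.46-fold change.

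In the miR-450a hairpins the shared 5p arm was the steadiest of the abundant arms. miR-450a-5p had 1016, 971 and 893 CPM in KO, against 911, 969 and 896 CPM in EV. The groups overlapped, and the lowest and the highest value of all 6 were both in KO. The log2 change was 0.05 (SE 0.07, 95% interval -0.11 to 0.21, edgeR adjusted p = 0.679), an interval from 0.928-fold to 1.16-fold. miR-450a-1-3p had 4.05, 5.58 and 5.16 CPM in KO, against 4.08, 3.67 and 5.18 CPM in EV. The groups overlapped (log2 change 0.20, SE 0.19, edgeR adjusted p = 0.550). miR-450a-2-3p, the 3p arm of the other copy, was counted 5, 7 and 6 times in KO and 6, 3 and 1 times in EV. These counts overlapped, although in CPM every KO value was above every EV value. It did not pass the filter on low counts and was not tested. Fitted without the filter its log2 change was 0.90, with an SE of 0.76 and an edgeR adjusted p of 0.632.

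In the miR-450b hairpin, the last of the cluster, miR-450b-5p was higher in every KO library than in any EV library. It had 378, 337 and 372 CPM in KO 1, KO 2 and KO 3, against 246.5, 305 and 328 CPM in EV 1, EV 2 and EV 3. It was the only 1 of the 8 tested downstream arms without overlap. Of all 460 tested microRNAs 29.1% had no overlap, and 15.2% had KO entirely above EV. The log2 change was 0.31 (SE 0.11, 95% interval 0.07 to 0.55), a 1.24-fold difference that edgeR did not call (adjusted p = 0.120). The call depended on the test and on 1 library: DESeq2 gave an adjusted p of 0.0436, and edgeR without EV 3 gave 0.39 (SE 0.10, adjusted p = 0.0339). Without EV 3 and KO 2 together edgeR gave 0.45 (SE 0.12, adjusted p = 0.00677). The values left out were the highest of EV and the lowest of KO. Without EV 1, its lowest library, the log2 change was 0.20 (SE 0.08, edgeR adjusted p = 0.204). miR-450b-3p, the minor arm, had 25.7, 24.6 and 23.4 CPM in KO, against 20.4, 22.4 and 24.2 CPM in EV. Only EV 3 reached into the KO range, and the difference was 0.14 on the log2 scale (SE 0.13, edgeR adjusted p = 0.565).

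**Figure D2:**
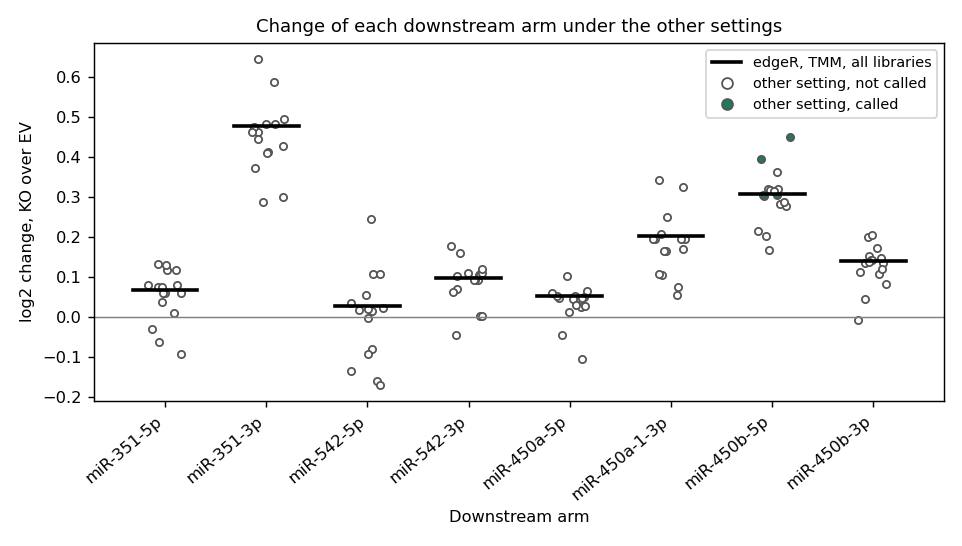
Log2 change of KO over EV of the 8 tested downstream arms under each of the other settings (points, filled where called) and in the edgeR fit with TMM factors (black bars). miR-450b-5p has filled points and lies above 0 throughout, from 0.17 to 0.45, and miR-542-5p spreads on both sides of 0, from -0.17 to 0.24.

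The downstream arms varied between libraries of a group by more than counting error. The pooled within-group SD of log2 CPM was 0.157 for miR-351-5p, 0.137 for miR-542-3p, 0.0784 for miR-450a-5p and 0.164 for miR-450b-5p. Counting alone would give 0.0152, 0.0115, 0.0133 and 0.0226 for these arms. The spread was 2.33 times that of counting for miR-351-3p, 1.79 times for miR-542-5p, 1.29 times for miR-450a-1-3p and 1.18 times for miR-450b-3p. Among the 8 tested arms, counting thus made up most of the spread for miR-450b-3p and miR-450a-1-3p only.

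The arms of the cluster did not all change by the same amount. There were 25 genomic clusters with at least 3 tested arms. The miR-322/miR-503 cluster (12 tested arms) was the only one called for differing log2 changes (limma diffSplice F test, adjusted p = 9.78e-06), or 4% of clusters. Without EV 3 and KO 2 the adjusted p was 6.37e-04. Upstream, miR-322-5p had 1027, 939 and 999.8 CPM in KO, against 491, 522 and 553 CPM in EV, the base against which the downstream arms are set here. The log2 changes of the 4 upstream arms lay between 0.34 (miR-503-3p) and 0.92 (miR-322-5p), with a median of 0.53. edgeR called 3 of them and not miR-503-3p. The call of miR-322-3p was lost without KO 2 and without EV 2 (edgeR adjusted p = 0.0559 and 0.0907), and miR-503-3p was called without EV 3 (edgeR adjusted p = 0.0313). With library size alone edgeR called only miR-322-5p of the 4, at adjusted p-values of 0.327 for miR-322-3p and 0.144 for miR-503-5p. miR-503-3p was also called by DESeq2 (adjusted p = 0.0218) and by edgeR with a filter of 10 CPM in 3 libraries (adjusted p = 0.0352). Against the average of the rest of the cluster, 7 of the 8 downstream arms had values below 0, from -0.33 to -0.03 on the log2 scale. That rest held miR-322-5p, itself 0.65 above its own rest, which lowers the other arms against the average. Upstream miR-503-3p was also just below 0, at -0.005. The 7 of 8 is thus no result about the downstream arms alone. The most negative was miR-450a-5p at -0.33 (SE 0.10). The other 2 of the 3 most abundant downstream arms followed closely, with -0.30 for miR-351-5p and -0.27 for miR-542-3p (SE 0.10 for both). The rarer miR-542-5p (-0.31, SE 0.23), miR-450b-3p (-0.20, SE 0.15) and miR-450a-1-3p (-0.14, SE 0.23) had wider errors. miR-450b-5p was nearest to the average (-0.03, SE 0.11), and miR-351-3p lay above it (0.15, SE 0.18). None of these 8 passed individually (limma diffSplice adjusted p from 0.147 to 0.964), and miR-322-5p was the only arm that did among 173, a background of 0.578%. With 1 library left out, miR-542-3p passed without EV 1 (-0.38, limma diffSplice adjusted p = 0.0154) and miR-450a-5p without EV 3 (-0.37, adjusted p = 0.0256). diffSplice treats arms of 1 library as independent, which neighbours in a cluster are not.

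**Figure D3:**
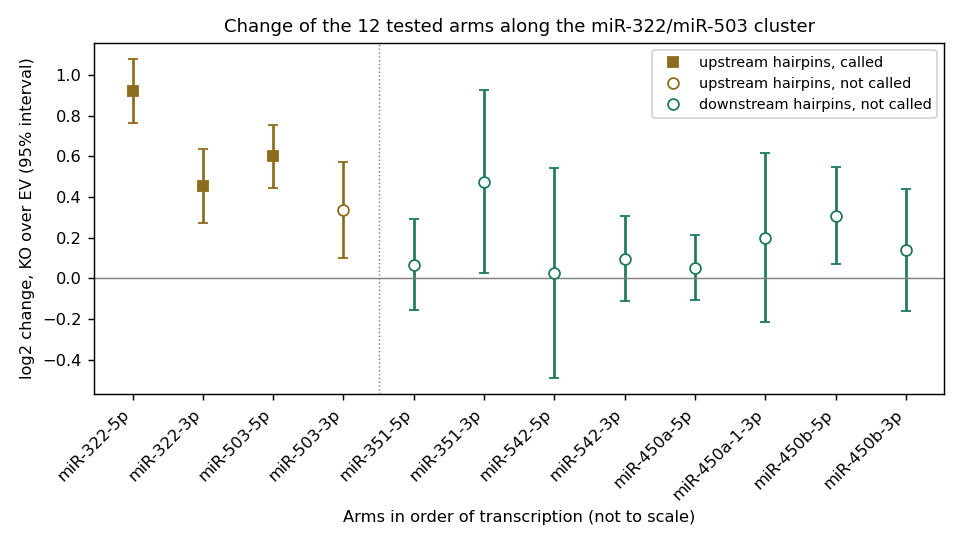
Log2 change of KO over EV with 95% intervals for the 12 tested arms, in order of transcription and not to scale, with filled squares for arms called by edgeR. The 4 upstream arms lie between 0.34 and 0.92, and of the downstream arms only miR-351-3p and miR-450b-5p have intervals above 0.

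When the cluster was divided by position into its upstream and downstream hairpins, a division chosen after the data were seen, the 8 downstream arms were not shown to differ from each other (limma diffSplice F test, adjusted p = 0.846), against 3.85% of 26 units called. The 4 upstream arms did differ from each other (adjusted p = 0.0107). The arm farthest from the other downstream arms was miR-351-3p, with a difference of 0.35 from their average (SE 0.19, limma diffSplice adjusted p = 0.630). miR-450b-5p followed with 0.20 (SE 0.12, limma diffSplice adjusted p = 0.646).

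Ratios taken within a library need no scaling factor. By this measure the downstream arms made up 44.6%, 43.3% and 43.1% of the cluster's reads in KO 1, KO 2 and KO 3, against 48.8%, 52.1% and 54.01% in EV 1, EV 2 and EV 3. Counting error was at most 0.372 percentage points on either side (95% Clopper-Pearson), so the gap between the groups was larger than that. The share averaged 43.7% ± 0.811 in KO and 51.6% ± 2.65 in EV (SD, n = 3 each), a difference of -7.97 percentage points. The groups did not overlap, and the two-sided exact permutation test gave p = 0.1, the smallest that 3 against 3 libraries allow. This share, and the ratio below, fall by arithmetic when the upstream arms rise and the downstream arms stay level. No such share was taken for other microRNAs, so the fall is no result about the downstream arms alone. The log2 ratio of downstream to upstream reads differed by -0.46 between the groups, at -0.37 ± 0.05 in KO and 0.09 ± 0.15 in EV (SD, n = 3 each, exact permutation p = 0.1). With the 5p arms alone on both sides the difference was -0.70, and without EV 3 and KO 2 it was -0.38 (exact permutation p = 0.333, the smallest that 2 against 2 allow).

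**Figure D4:**
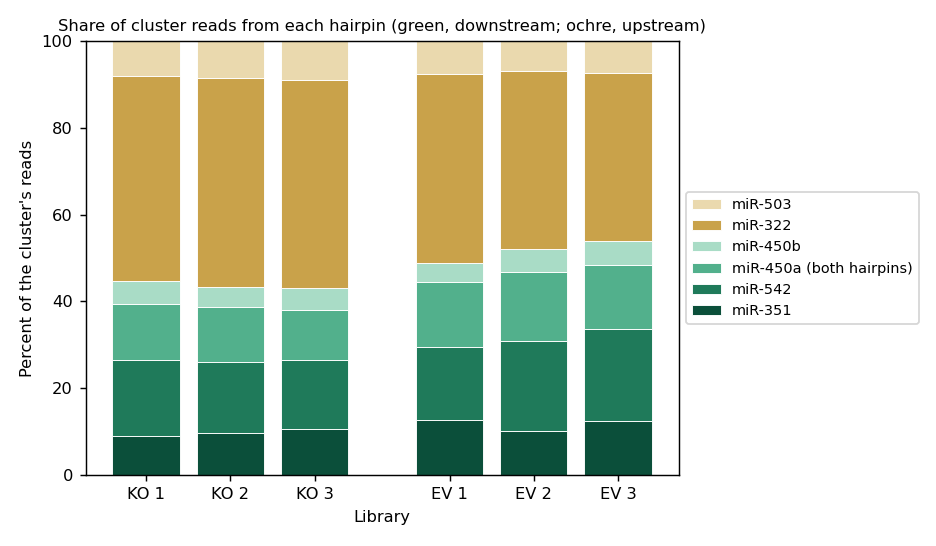
Percent of the cluster's reads (linear axis from 0) from each hairpin in each library, with downstream hairpins in green and upstream hairpins in ochre. The green part ends between 43.1% and 44.6% in KO and between 48.8% and 54.01% in EV.

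In CPM, the sum of the downstream arms was 3404 ± 71.6 in KO and 3176 ± 168 in EV (SD, n = 3 each), a ratio of means of 1.07. The sum of the upstream arms was 4391 ± 54.1 in KO and 2974 ± 162 in EV (SD, n = 3 each), a ratio of 1.48. By hairpin, the shares of the cluster's reads were lower on average in KO for all 4, beside the larger rise of the upstream sum. miR-351 took 9.71% ± 0.717 of the cluster's reads in KO and 11.7% ± 1.44 in EV. miR-542 took 16.6% ± 0.664 in KO and 19.7% ± 2.41 in EV. miR-450a, both copies together, took 12.4% ± 0.779 in KO and 15.1% ± 0.702 in EV. The last hairpin of the cluster stood closest to its EV share. miR-450b took 4.97% ± 0.270 in KO and 5.13% ± 0.708 in EV (SD, n = 3 each for all 4).

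Set against miR-322-5p within each library, 7 of the 8 tested downstream arms had every KO ratio below every EV ratio, and so did 85.2% of the 459 other microRNAs tested. The share among the downstream arms is near this background and is no result about them, and the ratios below describe their proportion to miR-322-5p. The miR-322-5p reads are the base of all 9 ratios, so these are not independent of each other. miR-351-5p had a log2 ratio to miR-322-5p of -0.57, -0.35 and -0.32 in KO, against 0.64, 0.21 and 0.46 in EV, so it was the rarer of this pair in KO and the more abundant in EV. miR-542-3p was the more abundant in all 6, at 0.40, 0.44 and 0.32 in KO, against 1.08, 1.28 and 1.25 in EV. miR-450a-5p stood near parity in KO at -0.02, 0.05 and -0.16, against 0.89, 0.89 and 0.70 in EV. miR-450b-5p stood at -1.44, -1.48 and -1.42 in KO, against -0.99, -0.77 and -0.76 in EV. The mean differences of these 4 were -0.85, -0.82, -0.87 and -0.61 in the same order, each with an exact permutation p = 0.1, the smallest possible, and 0.129 adjusted over the 9 ratios. miR-351-3p and miR-450a-2-3p were the 2 arms whose groups overlapped.

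**Figure D5:**
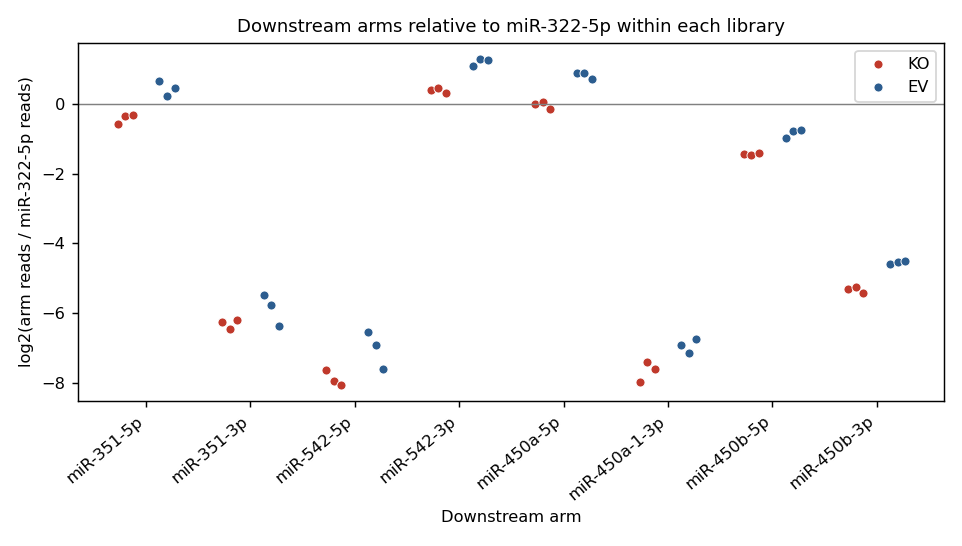
Log2 ratio of the reads of 8 downstream arms to those of miR-322-5p in each library (KO to the left of EV for each arm), with 1 point for each library. For every arm shown except miR-351-3p the KO points lie below the EV points.

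The ratio of miR-450b-5p to the other abundant arms was examined after its values were seen. Its log2 ratio to miR-542-3p was -1.84, -1.92 and -1.75 in KO, against -2.07, -2.06 and -2.01 in EV, without overlap (exact permutation p = 0.1, 0.3 adjusted over 3 ratios). Its ratios to miR-450a-5p and miR-351-5p overlapped between the groups (exact permutation p = 0.2 and p = 0.4).

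Within a hairpin, the proportion of the 2 arms was not shown to change. In miR-351 there were 51.2, 68.3 and 58.3 reads of the 5p arm for each 3p read in KO, against 69.6, 63.2 and 113 in EV. EV 3 stood far above the other 5 libraries. In miR-542 the 3p arm outnumbered the 5p arm by 260, 333 and 331 reads to 1 in KO, against 199, 293 and 461 in EV, and the groups overlapped throughout. In miR-450b there were 14.7, 13.7 and 15.9 reads of the 5p arm for each 3p read in KO, against 12.1, 13.6 and 13.5 in EV. This was the only one of the 5 arm ratios without overlap, with a log2 difference of 0.17 (exact permutation p = 0.1, 0.333 adjusted over 5 ratios). The exact permutation p stayed at 0.1 without KO 1 or KO 2. It was 0.3 without KO 3 and 0.2 without EV 1, EV 2 or EV 3. Overlap was not counted for arm ratios of other hairpins, so its absence is no result about miR-450b. For miR-450a-5p, which comes from both copies, the log2 ratio to miR-450a-1-3p averaged 7.62 ± 0.31 in KO and 7.76 ± 0.31 in EV (SD, n = 3 each, exact permutation p = 0.6). Its log2 ratio to miR-450a-2-3p differed by -1.19 between KO and EV (exact permutation p = 0.2, groups overlapping). That value rests on at most 7 reads of the 3p arm a library, and without EV 3 it was -0.62.

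Seed partners of the downstream arms outside the cluster were few. miR-351-5p shares its seed with miR-125a-5p and miR-125b-5p, known as regulators of cell fate and apoptosis, and with no other microRNA of the count table that matched RefSeq. miR-125a-5p lies on chromosome 17, and miR-125b-5p comes from copies on chromosomes 9 and 16 (GRCm38.p6).
miR-351-5p: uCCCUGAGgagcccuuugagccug
miR-125a-5p: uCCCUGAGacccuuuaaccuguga
miR-125b-5p: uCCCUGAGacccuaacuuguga

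After base 8 these sequences diverge, and aligned from the 5′ end without gaps miR-351-5p is identical to miR-125a-5p at 10 of 24 bases and to miR-125b-5p at 10 of 22. The bulk of this seed was miR-125b-5p, with 3382, 3509 and 3090 CPM in KO, against 2896, 2773 and 2958 CPM in EV. Its groups did not overlap, and it was not called at 0.21 on the log2 scale (SE 0.07, edgeR adjusted p = 0.132). miR-125a-5p had 419, 408 and 392.5 CPM in KO, against 370.5, 352.5 and 452 CPM in EV, and its groups overlapped (log2 change 0.05, SE 0.10, edgeR adjusted p = 0.771). Including the 3p arms of these hairpins, which do not carry the seed, 0 of the 5 tested miR-125 microRNAs were called, against 7.61% of all tested, and their median log2 change was 0.11. miR-450a-1-3p and miR-450b-3p share a seed with each other and with no other matched microRNA of the table, and miR-542-5p shares one with miR-6966-5p, which did not pass the filter. The other 5 downstream arms had no seed partner among the 849 of 1028 microRNAs of the table with a RefSeq sequence.

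Of 19 tested X-chromosome microRNAs outside the cluster, 2 rose and 0 fell (edgeR, against 5% and 2.61% of all tested), and their median log2 change was 0.24, against 0.12 for the 8 downstream arms. The 2 were miR-362-3p and miR-500-3p, at log2 changes of 0.75 (SE 0.15, edgeR adjusted p = 0.0167) and 0.62 (SE 0.15, edgeR adjusted p = 0.0314). Both belong to 1 genomic cluster, which supplied 6 of the 19, at log2 changes from 0.41 to 0.75. The median of the 19 thus leans on that cluster and is no result about the X chromosome as a whole.

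The microRNAs most like the 3 most abundant downstream arms across the 6 libraries came from outside the cluster. Likeness was the root-mean-square difference of log2 CPM after each microRNA was centred on its own mean, over 457 others. miR-542-3p was closest to miR-186-5p (0.03), miR-361-5p (0.05) and miR-344d-3p (0.05), against a median of 0.26, and miR-450b-3p was 4th. miR-450a-5p was closest to miR-101b-3p (0.04), miR-106b-5p (0.04) and miR-15b-5p (0.05), and its nearest cluster arm, miR-450b-3p, was 35th. miR-351-5p was closest to miR-30c-2-3p (0.07), miR-378a-5p (0.08) and miR-423-5p (0.09), and its nearest cluster arm, miR-503-3p, was 55th. All points share library and depth. Few of the 457 are arms of the cluster, so nearest neighbours from outside it are likely in any case. No such ranking was made for arms of other clusters, so the neighbours are no result about the downstream arms.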

How the data were processed

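Per the deposited count table, the authors gave whole-number read counts for each mature microRNA in the 6 libraries. The TPM columns deposited beside them are the counts per 1000000 of a library (to within 3.49e-10), have no length term, and were left untested. A further table deposited by the authors holds each group's mean normalized signal, log2 fold changes, p-values and adjusted p-values. The submitters' processing notes name Bowtie, mm10 and DESeq 1.8.3. How multiply matching reads were counted, and the miRBase release, are not given in the sources used here.

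Groups came from the labels. edgeR 4.0.16 (R 4.3.3) tested KO over EV by its two-sided quasi-likelihood F test, after TMM scaling and filterByExpr (minimum count 10, minimum total 15), with Benjamini-Hochberg adjustment over all 460 microRNAs that passed and calls at an adjusted p under 0.05. Within clusters, limma 3.58.1 diffSplice on voom values was used. A cluster was a run of same-strand microRNAs separated by at most 10000 bases, placed by RefSeq names, which 849 of 1028 matched. Within-library ratios were compared by exact permutation of libraries. On simulated counts for KO against EV (453 microRNAs tested), edgeR called 90% of those changed 2-fold and 59.6% of those changed 1.5-fold. There 100 microRNAs were changed 2-fold and 94 were changed 1.5-fold, a far larger part than the 7.61% called in the data. So many changes ease the adjusted threshold, and differences in composition between libraries were not simulated. The rates are therefore no measure of power for the downstream arms. Alternatives were DESeq2 1.42.0, limma-voom, other scalings and filters, a replicate block, and libraries left out. Named microRNAs were all downstream and upstream arms, tested seed partners, and the 3 most alike in profile for each of the 3 most abundant downstream arms, with markers and miR-21a-5p where a result touched them. The X-linked microRNAs that were called, miR-362-3p and miR-500-3p, were named after their values were seen. The members and lists were chosen with earlier results of these data known. Replicates of a group were checked for identity, and the closest pair differed by more than counting noise (chi-square 9040, 457 degrees of freedom).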

Additional observations from a re-analysis of the deposited data

How the results depend on the processing

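No downstream arm was called with median-of-ratios factors, library size alone, library sizes without miR-21a-5p, limma-voom, no filter, the 10 CPM filter or the replicate block. The count was 1 (miR-450b-5p) with DESeq2, without EV 3 and KO 2, and with DESeq2 under a local dispersion trend (added after the data were seen), and 0 to 1 with 1 library left out. Over all microRNAs 35 were called, against 5 with library size alone, 56 without the filter, 15 to 59 with 1 library left out, 88 without EV 3 and KO 2, and 67 with the local trend. Calls were 23 higher and 12 lower, against 1 higher and 4 lower with library size alone and 18 higher and 25 lower without miR-21a-5p. Signs near 0 depended on scaling. With library size alone the log2 changes were -0.093 for miR-351-5p, -0.16 for miR-542-5p, -0.046 for miR-542-3p, -0.11 for miR-450a-5p and -0.0084 for miR-450b-3p. Without miR-21a-5p in the library sizes they were -0.030 for miR-351-5p, -0.080 for miR-542-5p and -0.046 for miR-450a-5p. miR-542-5p also reversed, to -0.0038 without the filter and -0.094 without EV 3 and KO 2. With 1 library left out, miR-542-5p ranged from -0.17 to 0.24 and miR-351-5p from -0.064 to 0.13. Relative to the rest of the cluster, miR-450b-5p reversed to 0.097 without EV 3 and KO 2. With 1 library left out these differences ranged from -0.15 to 0.052 for miR-450b-5p, from -0.25 to 0.0011 for miR-450a-1-3p and from -0.070 to 0.32 for miR-351-3p, and the log2 5p to 3p difference from -0.34 to 0.26 for miR-542 and from -1.66 to -0.62 for miR-450a-2. The cause was not tested. The cluster test passed in every alternative tried (diffSplice adjusted p up to 0.0489, with library size alone). The difference of the downstream share lay between -11.2 and -6.59 percentage points.

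KO and EV share replicate numbers. Deviations from the group means correlated between same-numbered libraries at r = 0.50, -0.36 and -0.56 over 249 microRNAs. No KO library correlated best with its own number, although KO 1 correlated almost as well with EV 1 as with EV 2 (r = 0.53). KO 2 and EV 3 correlated most (r = 0.70). With 3 libraries in a group these values cannot tell whether same-numbered libraries were prepared together. With the replicate block 34 microRNAs and 0 downstream arms were called. Depth limited miR-450a-2-3p, at 7 reads or fewer a library, which was not tested. For miR-450b-3p and miR-450a-1-3p the spread between libraries was close to that of counting.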
